A study of Homo sapiens with 18 samples.

Results

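Homologous recombination copies an intact sister chromatid to mend a DNA double-strand break, and cells use it mainly in S and G2 phase, when a sister is present. Of this pathway, 9 genes were listed, and every probe set that carries exactly 1 of their symbols was taken. BRCA1, BARD1, RAD51AP1, RAD54L, XRCC2, MND1, EXO1 and FANCI had 13 such probe sets, of 41097 single-symbol probe sets on the array, and made up 8 of 19775 genes. BRCA2 was not analysed here.

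The study profiled total RNA of LNCaP and 22Rv1, both established human prostate cancer cell lines, on Affymetrix U133 Plus 2.0 arrays, 18 in all and 3 in each of 6 groups. ONECUT2 is a transcription factor of the CUT and homeodomain family. LNCaP overexpression cells and 22Rv1 overexpression cells carried a lentivirus with the full-length ONECUT2 cDNA, a Myc-DDK tag and an IRES-puromycin cassette, and each was set against control cells of its own line, whose treatment label reads vehicle. A further pair of 22Rv1 groups carried a pLKO lentivirus, one labelled ONECUT2 shRNA and the other scramble. The lentiviral lines were stable lines selected with puromycin, and all cells grew in RPMI medium with fetal bovine serum. The labels do not say whether vehicle cells carried a vector. ONECUT2, virus and selection therefore cannot be told apart in the overexpression comparisons. The labels name neither a batch nor separate cultures, so the spread behind each p-value is that of arrays and may be technical.

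The repair machinery works in steps. Nucleases such as EXO1 first trim the break to leave single-stranded ends, a step that the BRCA1 and BARD1 ubiquitin ligase promotes. The ends then find and invade the sister, a step assisted by RAD51AP1, RAD54L, XRCC2 and, best known from meiosis, MND1. FANCI, with its partner FANCD2, marks DNA where a crosslink has stalled replication and hands the lesion to the same machinery. In prostate cancer the pathway is known for the sensitivity to PARP inhibitors that follows its loss.

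ONECUT2 itself was read first. Its log2 expression values, made by the authors with GCRMA, were 7.23, 7.31 and 7.28 in LNCaP overexpression cells, against 6.58, 6.53 and 6.72 in LNCaP control cells, and 8.59, 8.81 and 8.85 in 22Rv1 overexpression cells, against 8.23, 8.15 and 8.25 in 22Rv1 control cells. The arrays labelled ONECUT2 shRNA read 8.46, 9.0 and 9.12, against 6.63, 6.71 and 7.08 on the scramble arrays, so the order goes against the labels and no direction is drawn from the word shRNA. By group mean the scramble arrays (6.81) lay below 22Rv1 control (8.21). Those labelled ONECUT2 shRNA (8.86) were about as high as 22Rv1 overexpression (8.75). Whether the probe set lies in the part of the transcript carried by the vector is not given in the sources used here.

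Median log2 values lay between 3.26 and 3.34 on the 18 arrays, and the share of probe sets above 4, the floor used below, was 38.3 to 40.0%. Within groups the arrays correlated at 0.996 or more, except in LNCaP overexpression, where the lowest correlation was 0.975 and replicate 1 stood apart, closer to the LNCaP control arrays (average correlation 0.969), against 0.948 and 0.953 for replicates 2 and 3. The 3' minus 5' difference of the actin control probe sets was 8.06 ± 0.70 in 22Rv1 overexpression, against 4.11 ± 0.41 in 22Rv1 control (SD, n = 3 each), with an exact two-sided permutation p of 0.1, the smallest that 3 against 3 arrays allow. In LNCaP it was 2.85 ± 0.56 in overexpression and 2.94 ± 0.25 in control (SD, n = 3 each; exact permutation p = 0.8). The exact permutation p was also 0.1 for the arrays labelled ONECUT2 shRNA (4.27 ± 0.04) against scramble (3.88 ± 0.28), and for LNCaP control against 22Rv1 control (SD, n = 3 each). For the GAPDH control probe sets the 3' minus 5' difference was -0.43 ± 0.13 in 22Rv1 overexpression and -0.70 ± 0.09 in 22Rv1 control. In LNCaP overexpression and in LNCaP control the GAPDH difference was -0.68 ± 0.07 (SD, n = 3 each). Of 6 leukocyte and endothelial markers none exceeded the floor on every array of any group, and of 6 prostate luminal markers 5 did in LNCaP overexpression and 6 in LNCaP control, and 5 did in each 22Rv1 group. The summed linear level of 6 stromal markers was 1693 to 4174 in LNCaP overexpression, against 297.4 to 399.7 in LNCaP control, and 886.4 to 947.8 in 22Rv1 overexpression, against 286.5 to 322.7 in 22Rv1 control. Of these 6 markers 4 lay under the floor on every array of both overexpression groups, 4 did in LNCaP control and 2 in 22Rv1 control. COL1A1 carried the sums, at 3.64 ± 0.28 in LNCaP and 2.12 ± 0.28 in 22Rv1 (log2 change ± SE), while of 4 stromal markers tested 1 was called higher and 2 lower in each line. The summed linear level of the luminal markers was 7461 to 9757 in LNCaP overexpression, against 19436 to 19632 in LNCaP control, and 6079 to 6834 in 22Rv1 overexpression, against 4982 to 5465 in 22Rv1 control, with 3 of 6 called lower and 1 higher in each line. The parts of the actin difference, of the stromal and luminal genes and of LNCaP replicate 1 in the results were not tested, apart from the values without that array given below.

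The promoters of MND1, EXO1 and XRCC2 are shown because these genes fell with overexpression and the windows hold a core word of E2F sites, the binding sites of the S phase transcription factors. RefSeq windows of GRCh38.p14 run from 250 bases before to 50 bases after a start, and 7 of the 8 genes had at least 1, with 11 windows in all. Each line gives 280 bases of a window, 5′ to 3′ on the gene's strand, with the word in capitals, which for MND1 and XRCC2 reads as its reverse complement.
MND1 (chr4:153344438-153344717, plus strand): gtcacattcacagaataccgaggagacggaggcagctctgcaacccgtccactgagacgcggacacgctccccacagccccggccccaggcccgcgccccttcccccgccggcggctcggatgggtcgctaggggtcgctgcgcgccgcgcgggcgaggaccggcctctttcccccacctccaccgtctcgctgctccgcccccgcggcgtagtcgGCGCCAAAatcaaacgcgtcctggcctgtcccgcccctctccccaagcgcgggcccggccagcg
EXO1 (chr1:241847954-241848233, plus strand): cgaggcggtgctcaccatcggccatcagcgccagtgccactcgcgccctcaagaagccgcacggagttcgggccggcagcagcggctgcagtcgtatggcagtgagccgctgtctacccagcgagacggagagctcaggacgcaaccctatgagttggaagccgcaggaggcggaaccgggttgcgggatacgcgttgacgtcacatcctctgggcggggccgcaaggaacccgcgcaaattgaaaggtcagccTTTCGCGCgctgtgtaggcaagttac
XRCC2 (chr7:152676112-152676391, minus strand): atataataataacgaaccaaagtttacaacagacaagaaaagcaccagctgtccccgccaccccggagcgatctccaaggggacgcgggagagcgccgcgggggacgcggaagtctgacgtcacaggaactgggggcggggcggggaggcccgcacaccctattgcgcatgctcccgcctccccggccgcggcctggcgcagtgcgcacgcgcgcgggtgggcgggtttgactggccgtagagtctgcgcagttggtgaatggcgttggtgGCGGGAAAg
The words searched on both strands were TTTCCCGC, TTTCGCGC, TTTGCCGC and TTTGGCGC. Relative to the annotated start the word begins at -34 in MND1, at 4 in EXO1 and at 21 in XRCC2. The words stood in windows of 3 of the 7 genes and in 4 of 11 windows, against 3.31% of all 35114 windows. That percentage is a share of windows, not of genes. The 2 MND1 windows overlap and hold the same site, which is counted in both. CCAAT stood in windows of 3 genes, BRCA1, RAD51AP1 and RAD54L (4 of 11 windows, against 34.6% of all), and the 2 RAD54L windows overlap and hold the same sites. TTTGAA, the core of the cell cycle homology region, and the ONECUT words ATCAAT and ATCGAT stood in 0 of the 11, against 15.2% and 6.96% of all windows. A word in a window is a description of its letters and does not show that a factor bound there.

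The first question was how these genes differed between ONECUT2 overexpression cells and control cells in each line. All 8 genes fell in LNCaP, where 28.0% of 12159 tested genes were called lower, and all 8 fell in 22Rv1, where 24.3% were called lower. The 8 were chosen with earlier results of these data known, so their counts are descriptions and not an independent test. The median change of the 8 was -4.34 on the log2 scale in LNCaP, beside 0.09 over all tested genes, and -2.06 in 22Rv1, beside 0.10. In each line the 3 overexpression arrays lay below the 3 control arrays for all 8 genes, as they did for 26.2% of all genes in LNCaP and 32.0% in 22Rv1. A gene was called at an adjusted p under 0.05 in limma, with Benjamini-Hochberg adjustment over all tested genes, and its level is that of its brightest probe set. Arrays of bulk RNA cannot tell fewer cells that express a gene from less RNA per cell.

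**Figure D1:**
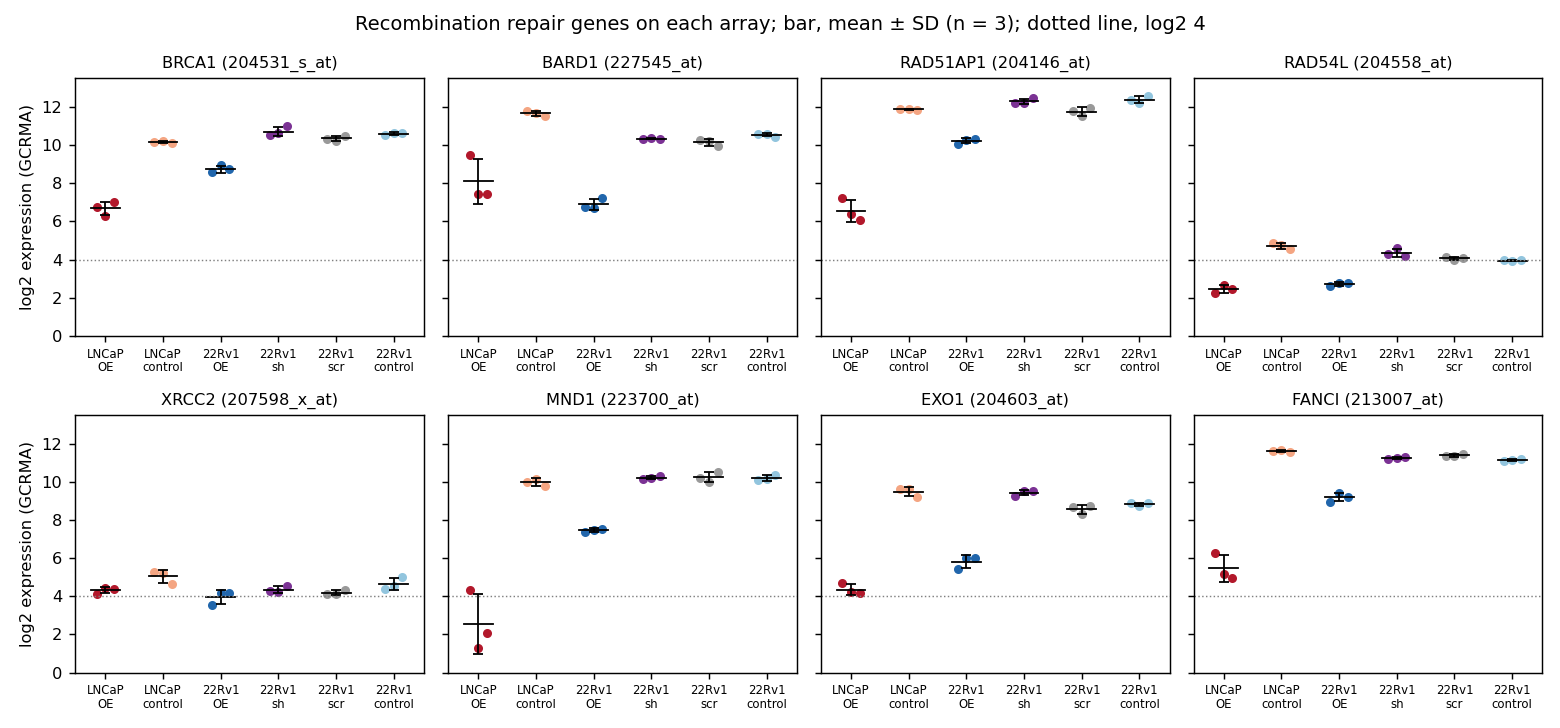
Log2 GCRMA expression value (vertical axis) of the 8 genes, 1 point per array, by group along the horizontal axis (OE, overexpression; sh, labelled ONECUT2 shRNA; scr, scramble), with bars at the mean ± SD (n = 3) and a dotted line at the floor of 4. The overexpression arrays of both lines lie below their controls for each gene, with LNCaP MND1 at 4.32, 1.28 and 2.06 in overexpression.

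BRCA1 and BARD1, the ubiquitin ligase pair that acts at the start of the pathway, fell in both lines. BRCA1 read 6.75, 6.31 and 7.0 in LNCaP overexpression, against 10.17, 10.23 and 10.11 in LNCaP control. In 22Rv1 it read 8.58, 8.94 and 8.73 in overexpression, against 10.54, 10.66 and 10.62 in control. Neither pair of groups overlapped, and the gap was wider in LNCaP. The change was -3.48 ± 0.16 on the log2 scale (SE; 11.2-fold lower) in LNCaP, at a limma adjusted p of 1.39e-11, and -1.86 ± 0.16 (3.63-fold lower) in 22Rv1, at an adjusted p of 4.18e-08.

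BARD1, which stabilises BRCA1 in the ligase, had its lowest mean in 22Rv1 overexpression at its brightest probe set. Its log2 values were 9.48, 7.45 and 7.41 in LNCaP overexpression, against 11.80, 11.68 and 11.52 in LNCaP control. They were 6.75, 6.71 and 7.22 in 22Rv1 overexpression, against 10.60, 10.56 and 10.45 in 22Rv1 control. LNCaP overexpression replicate 1 lay about midway between its own group and the controls, yet below every control array. The changes were -3.55 ± 0.37 (11.7-fold lower, limma adjusted p = 4.2e-07) in LNCaP and -3.64 ± 0.37 (12.5-fold lower, adjusted p = 3.32e-07) in 22Rv1. Without replicate 1 the LNCaP change was -4.24.

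EXO1, the nuclease that resects broken ends over long distances, fell in both lines. It read 4.67, 4.21 and 4.18 in LNCaP overexpression, against 9.64, 9.61 and 9.22 in LNCaP control, and the overexpression arrays came close to the floor. The 22Rv1 arrays read 5.42, 6.02 and 6.01 in overexpression, against 8.87, 8.72 and 8.88 in control. EXO1 fell by 5.14 ± 0.19 on the log2 scale (35.2-fold lower, limma adjusted p = 8.39e-13) in LNCaP and by 3.01 ± 0.19 (8.03-fold lower, adjusted p = 1.18e-09) in 22Rv1. The start region of this gene is the second line of sequence shown above.

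Among the genes of strand invasion, RAD51AP1, which stimulates that step, read 7.21, 6.38 and 6.10 in LNCaP overexpression, against 11.90, 11.91 and 11.83 in LNCaP control. In 22Rv1 its values were 10.08, 10.25 and 10.34 in overexpression, against 12.37, 12.23 and 12.58 in control. All 6 control arrays were above all 6 overexpression arrays, and the LNCaP overexpression arrays were the lowest of all. The changes were -5.32 ± 0.20 (39.9-fold lower, limma adjusted p = 1.84e-12) in LNCaP and -2.17 ± 0.20 (4.50-fold lower, adjusted p = 1.43e-07) in 22Rv1.

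MND1, which with PSMC3IP helps homologous strands to pair, fell below or close to the floor in LNCaP. Its values there were 4.32, 1.28 and 2.06 in overexpression, against 10.01, 10.17 and 9.79 in control, so 1 of 3 overexpression arrays exceeded the floor. In 22Rv1 they were 7.36, 7.49 and 7.55 in overexpression, against 10.11, 10.14 and 10.37 in control. The 22Rv1 overexpression arrays kept a level well above the floor, between the LNCaP overexpression arrays and the controls. The fitted change was -7.43 ± 0.48 (limma adjusted p = 2.08e-09) in LNCaP, of uncertain size since the overexpression arrays spread widely around the floor, and -2.74 ± 0.48 (6.66-fold lower, adjusted p = 0.000142) in 22Rv1. Without replicate 1 the LNCaP change was -8.32.

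RAD54L, a motor protein that remodels DNA during strand invasion, was dim on all arrays. It read 2.27, 2.69 and 2.47 in LNCaP overexpression, all under the floor, against 4.87, 4.75 and 4.54 in LNCaP control, and was at least 1.65-fold lower (limma adjusted p = 4.01e-10). In 22Rv1 it read 2.59, 2.76 and 2.76 in overexpression, against 3.95, 3.90 and 3.97 in control. Both 22Rv1 groups lay under the floor, so the call there (adjusted p = 5.99e-07) carries no fold.

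XRCC2, a subunit of a complex that prepares ends for strand invasion, changed least. It read 4.14, 4.43 and 4.41 in LNCaP overexpression, against 5.29, 5.20 and 4.64 in LNCaP control. The 22Rv1 values were 3.52, 4.18 and 4.20 in overexpression, against 4.39, 4.56 and 5.00 in control. The groups came close in both lines without overlapping, and all arrays stood near the floor. Its changes were -0.72 ± 0.21 (1.64-fold lower, limma adjusted p = 0.00654) in LNCaP and -0.68 ± 0.21 (1.60-fold lower, adjusted p = 0.00935) in 22Rv1. The 22Rv1 call was lost without control replicate 3 (-0.51, adjusted p = 0.0605) or without overexpression replicate 1 (-0.46, adjusted p = 0.0668).

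FANCI, a subunit of the clamp that closes around crosslinked DNA, fell in both lines. Its brightest probe set read 6.26, 5.18 and 4.95 in LNCaP overexpression, against 11.63, 11.66 and 11.58 in LNCaP control. In 22Rv1 it read 8.97, 9.41 and 9.23 in overexpression, against 11.08, 11.16 and 11.22 in control. The controls of both lines were close, while the overexpression groups lay far apart. The changes were -6.16 ± 0.23 (71.4-fold lower, limma adjusted p = 9.51e-13) in LNCaP and -1.95 ± 0.23 (3.87-fold lower, adjusted p = 1.48e-06) in 22Rv1.

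Genes of the cell cycle fell beside them. MKI67, which marks cycling cells, read 4.26, 4.14 and 3.68 in LNCaP overexpression, against 9.18, 8.61 and 9.09 in LNCaP control. In 22Rv1 it read 6.27, 6.37 and 6.52 in overexpression, against 9.93, 10.01 and 9.94 in control. Of 7 tested S and G2 phase genes 6 fell in LNCaP and 7 in 22Rv1, with medians of -4.78 and -2.63. Beside them, 28.0% of all genes fell in LNCaP and 24.3% in 22Rv1. PCNA, the replication clamp, was the exception in LNCaP at -0.52. Arrays ordered by MKI67 fell into 3 bands, LNCaP overexpression, 22Rv1 overexpression and the rest, as did the members' mean, so no pooled correlation between them is given. The part of cell cycle state in the members' change was not tested.

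**Figure D2:**
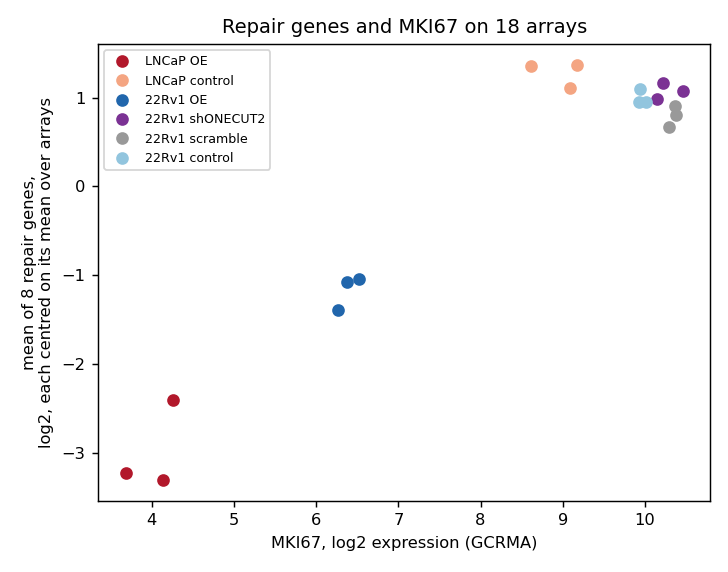
Mean of the 8 genes' centred log2 values (vertical axis) against the log2 value of MKI67 (horizontal axis), 1 point per array and 1 colour per group. The LNCaP overexpression arrays lie between -3.30 and -2.40 and the 22Rv1 overexpression arrays between -1.39 and -1.04, below the other 12 arrays, which lie between 0.67 and 1.37.

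The second question was whether the lines differed in this response. The difference was the LNCaP change minus the 22Rv1 change, tested in the same model. For 6 of the 8 genes the fall was larger in LNCaP, where 26.6% of all genes had a difference called in that direction. The differences were -1.62 ± 0.22 for BRCA1 (limma adjusted p = 2.41e-05), -3.15 ± 0.29 for RAD51AP1 (3.81e-07), -4.70 ± 0.68 for MND1 (4.97e-05), -2.13 ± 0.26 for EXO1 (8.66e-06) and -4.21 ± 0.32 for FANCI (4.9e-08). RAD54L was also called (-1.01 ± 0.19, adjusted p = 0.000403), but rested on values under the floor. The size for MND1 is uncertain too, since 2 of 3 LNCaP overexpression arrays were under the floor, and it ran from -5.58 to -4.06 with an array left out. BARD1 and XRCC2 were not called. BARD1 had a difference of 0.09 ± 0.52 (limma adjusted p = 0.901), with a 95% interval from -1.01 to 1.19, and that of XRCC2 was -0.04 ± 0.29 (adjusted p = 0.933), with an interval from -0.66 to 0.59. The BARD1 value rested on 1 array: without LNCaP overexpression replicate 1 it was -0.59, at an adjusted p of 0.0073.

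**Figure D3:**
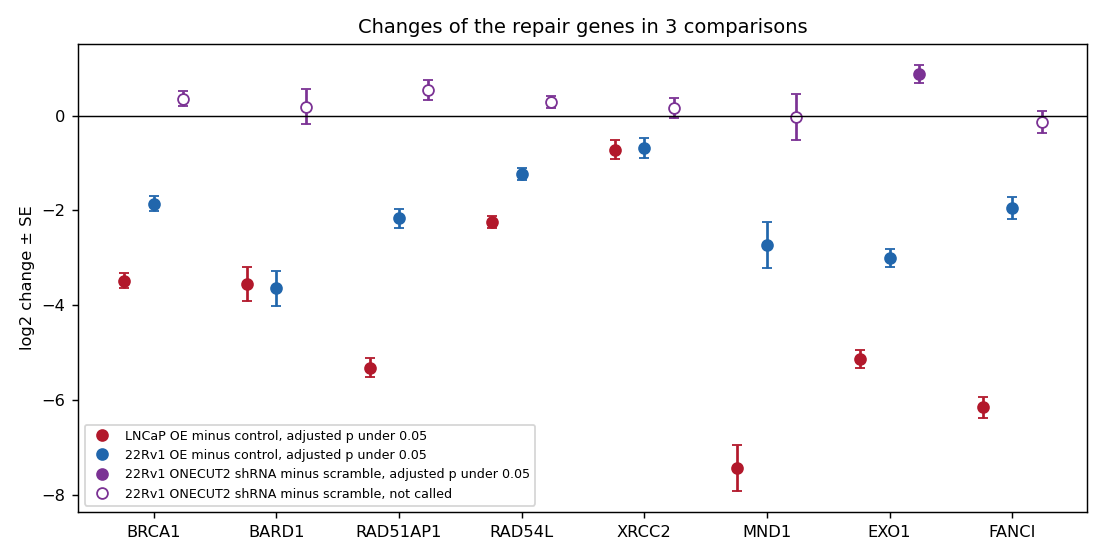
Log2 change ± SE (vertical axis) of each of the 8 genes (horizontal axis) in LNCaP overexpression (OE) minus control, 22Rv1 overexpression minus control and, on the arrays labelled ONECUT2 shRNA, minus scramble, with open points where the gene was not called. The changes run from -7.43 to -0.72 in LNCaP overexpression and from -3.64 to -0.68 in 22Rv1 overexpression, those of BARD1 and XRCC2 nearly coincide between the lines, and EXO1 at 0.88 is the filled point above 0.

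Other probe sets of the same genes gave the same direction and not always the same size. Of the 13 probe sets all were called lower in both lines, where 29.4% of 24903 tested probe sets were called lower in LNCaP and 26.2% in 22Rv1. The dimmer BRCA1 probe set, 211851_x_at, read 3.26, 3.32 and 3.52 in LNCaP overexpression, against 4.27, 4.71 and 4.28 in LNCaP control, and 3.15, 3.56 and 3.47 in 22Rv1 overexpression, against 4.67, 4.58 and 4.75 in 22Rv1 control. Both overexpression groups were under the floor for it, so a difference in the size of the falls could not be measured, and the fitted difference between lines, a test in which 24.4% of probe sets were called lower, was 0.22 ± 0.21 (limma adjusted p = 0.416).

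FANCI showed the widest disagreement among its 3 probe sets. Probe set 223785_at read 5.27, 4.53 and 4.63 in LNCaP overexpression, against 7.38, 7.33 and 7.23 in LNCaP control, and 6.35, 6.94 and 6.63 in 22Rv1 overexpression, against 9.49, 9.34 and 9.33 in 22Rv1 control. It fell by 2.50 ± 0.19 in LNCaP and by 2.75 ± 0.19 in 22Rv1, with a difference of 0.25 ± 0.27 (limma adjusted p = 0.491). Probe set 213008_at read 3.76, 3.47 and 2.85 in LNCaP overexpression, against 8.57, 8.62 and 8.35 in LNCaP control, and 5.48, 4.74 and 4.90 in 22Rv1 overexpression, against 8.16, 8.27 and 8.40 in 22Rv1 control. Its LNCaP overexpression arrays were all under the floor, and the fitted fall was larger in LNCaP, with a difference of -1.92 ± 0.29 (limma adjusted p = 6.45e-05). The larger FANCI response of LNCaP therefore held for 2 of 3 probe sets.

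BARD1 also had 3 probe sets. Probe set 205345_at read 4.22, 3.14 and 3.28 in LNCaP overexpression, against 7.39, 7.22 and 7.23 in LNCaP control, and 3.73, 3.63 and 3.57 in 22Rv1 overexpression, against 5.17, 6.73 and 5.80 in 22Rv1 control. The fitted fall was larger in LNCaP for this one (difference -1.48 ± 0.46, limma adjusted p = 0.0164). All 22Rv1 overexpression arrays and LNCaP overexpression replicates 2 and 3 were under the floor, so the sizes of the falls could not be compared. LNCaP control was also higher than 22Rv1 control for it, by 1.38 ± 0.32. Probe set 242655_at read 5.68, 3.57 and 4.91 in LNCaP overexpression, against 8.06, 7.66 and 7.34 in LNCaP control, and 4.39, 5.24 and 4.66 in 22Rv1 overexpression, against 7.31, 7.11 and 7.36 in 22Rv1 control. Its difference of -0.47 ± 0.51 was not called (limma adjusted p = 0.487).

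**Figure D4:**
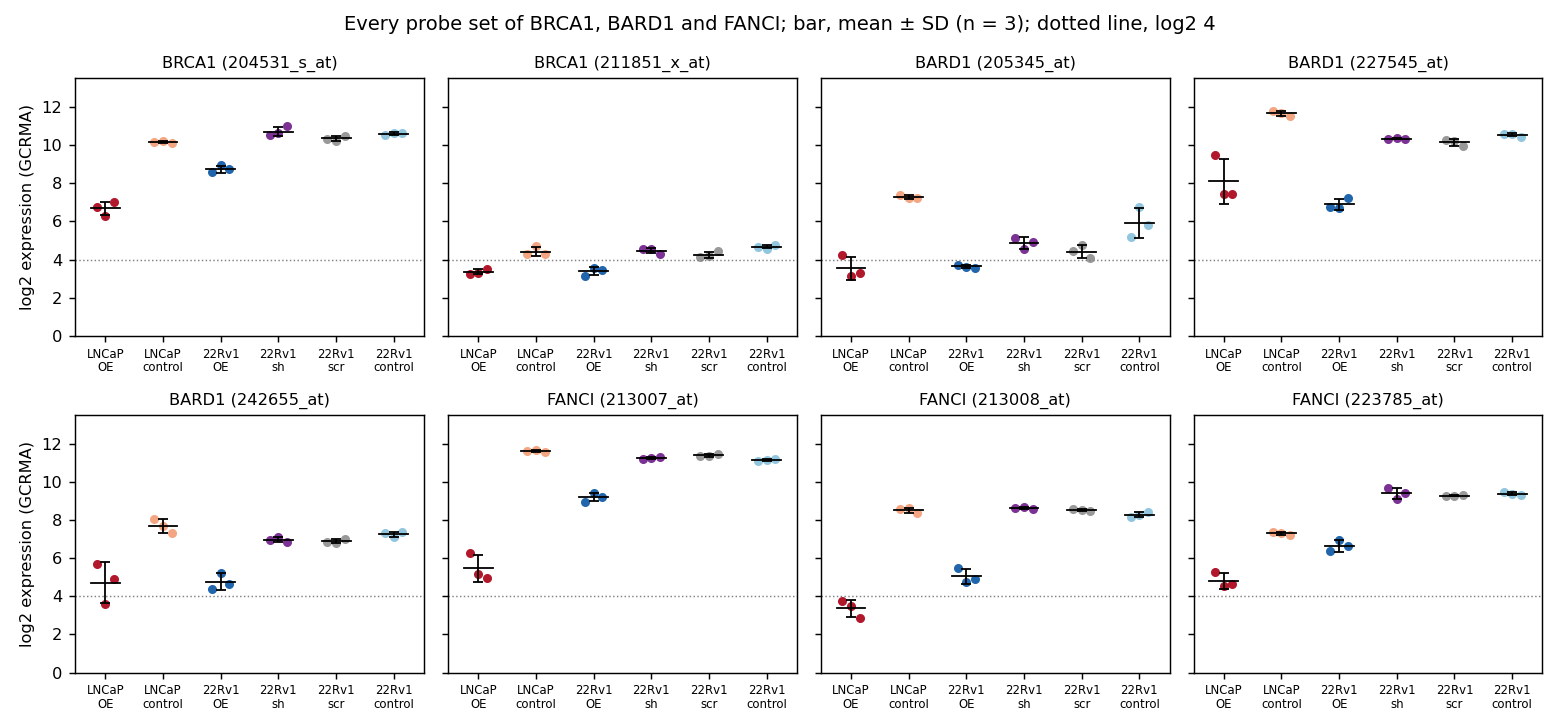
Log2 GCRMA expression value (vertical axis) of each probe set of BRCA1, BARD1 and FANCI, 1 point per array, by group along the horizontal axis (OE, overexpression; sh, labelled ONECUT2 shRNA; scr, scramble), with bars at the mean ± SD (n = 3) and a dotted line at the floor of 4. Overexpression arrays lie below the controls of their line in all panels, and for FANCI 223785_at LNCaP control, at 7.38, 7.33 and 7.23, also lies below 22Rv1 control, at 9.49, 9.34 and 9.33.

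The third question was whether the arrays labelled ONECUT2 shRNA differed from scramble. EXO1 alone of the 8 genes was called, and it was higher, where 13.4% of all genes were called higher and 16.1% lower. EXO1 read 9.28, 9.51 and 9.54 on the arrays labelled ONECUT2 shRNA, against 8.67, 8.29 and 8.73 on the scramble arrays, without overlap. The change was 0.88 ± 0.19 (1.84-fold higher, limma adjusted p = 0.0019). ONECUT2 was higher on the same arrays, against their label.

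The other 7 genes lay between -0.13 for FANCI (limma adjusted p = 0.712) and 0.55 for RAD51AP1 (adjusted p = 0.0557). RAD51AP1 read 12.19, 12.24 and 12.47 on the arrays labelled ONECUT2 shRNA, against 11.79, 11.51 and 11.96 on the scramble arrays, and BRCA1 read 10.54, 10.61 and 10.98, against 10.35, 10.22 and 10.50 on the scramble arrays. Neither gene overlapped between the groups, and both were called when only these 6 arrays were fitted (adjusted p = 0.00477 for RAD51AP1 and 0.0458 for BRCA1). In all, 5 members had every array labelled ONECUT2 shRNA above every scramble array, as 23.9% of all genes did, and 1 had every such array below, as 29.7% did.

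Both groups were also set against 22Rv1 control cells, which makes the comparisons share arrays. On the scramble arrays RAD51AP1 was lower than in 22Rv1 control, at 11.79, 11.51 and 11.96, against 12.37, 12.23 and 12.58, a change of -0.64 ± 0.20 (limma adjusted p = 0.0332). It was 1 of 8 genes, where 9.40% of all genes were called lower and 12.5% higher, and the call was lost when scramble replicate 1 or 2 or control replicate 1 or 3 was left out (adjusted p from 0.0767 to 0.140). Against 22Rv1 control the arrays labelled ONECUT2 shRNA gave 0 calls among the 8 by limma, where 4.46% of all genes were called, 2.35% higher and 2.11% lower. The nearest were EXO1 at 0.62 (adjusted p = 0.0718) and RAD54L, whose 22Rv1 control arrays all lay under the floor (adjusted p = 0.092), and 2 of the 8 had an unadjusted p under 0.05.

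The vehicle controls of the lines were compared too. LNCaP control was higher than 22Rv1 control for 3 genes and lower for 2, where 30.2% of all genes were called higher and 33.5% lower. BARD1 was higher in LNCaP control by 1.13 ± 0.37 (limma adjusted p = 0.0131) and EXO1 by 0.67 ± 0.19 (0.00495). RAD54L was at least 1.65-fold higher (adjusted p = 7.32e-05), since all 22Rv1 control arrays lay under the floor. BRCA1 was lower in LNCaP control, at -0.44 ± 0.16 (adjusted p = 0.0217), and so was RAD51AP1, at -0.51 ± 0.20 (0.0372). The BRCA1 call was lost without LNCaP control replicate 3 or 22Rv1 control replicate 2 or 3 (adjusted p from 0.0518 to 0.0650). That of RAD51AP1 was lost without any 1 of the 3 LNCaP control arrays or 22Rv1 control replicate 1 or 3 (from 0.0682 to 0.131). For FANCI the brightest probe set gave 0.47 (adjusted p = 0.081), whereas 223785_at had the opposite sign and was lower in LNCaP control, at -2.08 ± 0.19 (adjusted p = 6.68e-08), where 30.8% of probe sets were called lower.

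Across the 6 groups, LNCaP overexpression had the lowest mean for 6 of the 8 genes, and 22Rv1 overexpression had it for BARD1 and XRCC2. For BARD1 this held at the brightest probe set alone. The overexpression means were 3.54 in LNCaP and 3.64 in 22Rv1 at 205345_at, and 4.72 and 4.76 at 242655_at. For BRCA1, RAD51AP1, MND1, EXO1 and FANCI the 2 overexpression groups were separated from each other and from the groups above them, with no array overlapping. RAD54L overlapped between the 2 overexpression groups, all under the floor. For XRCC2 each group overlapped its neighbour in the order of means, so no order is read for it. The 4 groups without overexpression overlapped in part for every gene but BARD1, where LNCaP control came first, followed by 22Rv1 control, the arrays labelled ONECUT2 shRNA and scramble.

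The members followed each other closely apart from XRCC2. Over the 18 arrays the profile of MND1 was most like that of FANCI (Pearson r = 0.990), that of RAD51AP1 most like MND1 (0.988) and that of BRCA1 most like RAD51AP1 (0.981). EXO1 and RAD54L were each most like the other (0.963), and BARD1 was most like RAD54L (0.885). XRCC2 reached at most 0.636, with BARD1, and 0.252 with MND1. The genes outside the list most like the members' mean were NCAPG (0.997) and SMC2 (0.996), subunits of condensin, CENPU (0.996), a kinetochore protein, PRR11 (0.995) and CEP55 (0.993), which acts when daughter cells part. These correlations are descriptions, since the arrays share 3 bands of overexpression and control.

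The rest of the pathway was read through 6 lists with 51 tested genes. In LNCaP 33 fell, 9 rose and 9 did not pass, where 28.0% of all genes fell and 34.1% rose. In 22Rv1 30 fell, 8 rose and 13 did not pass, where 24.3% of all genes fell and 36.5% rose. Of 13 core recombination genes and mediators 7 fell in LNCaP and 7 in 22Rv1, with 3 and 2 higher. RAD54B, a relative of RAD54L, fell by 4.45 ± 0.32 in LNCaP and by 2.29 ± 0.32 in 22Rv1 (limma adjusted p = 4.21e-09 and 1.04e-05), and SFR1, a recombination mediator, fell by 2.33 ± 0.18 and by 2.05 ± 0.18. PALB2, which bridges BRCA1 to BRCA2, passed in neither line, at -0.17 in LNCaP (adjusted p = 0.338) and -0.02 in 22Rv1 (adjusted p = 0.921). The mediator RAD51C fell by 0.86 ± 0.24 in LNCaP and by 1.51 ± 0.24 in 22Rv1, and PSMC3IP, the partner of MND1, fell by 1.33 ± 0.25 and by 0.85 ± 0.25. DMC1, which pairs strands in meiosis, fell in 22Rv1 by 1.01 ± 0.17 and stood at 0.22 in LNCaP (limma adjusted p = 0.29). RAD52, a mediator that anneals single strands, rose at least 1.57-fold in LNCaP (adjusted p = 3.11e-05) and stood at -0.06 in 22Rv1 (adjusted p = 0.754). SWI5, the partner of SFR1, rose by 0.52 ± 0.17 in LNCaP and by 0.59 ± 0.17 in 22Rv1, and after centring the 22Rv1 rise was not called (0.41, adjusted p = 0.0655).

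End resection genes fell in LNCaP for 6 of 6 and in 22Rv1 for 5 of 6, where 28.0% and 24.3% of all genes fell. BLM, a helicase of the BTR complex, was at least 9.88-fold lower in LNCaP and fell by 2.16 in 22Rv1, and MRE11, the nuclease that starts resection, fell by 2.20 and by 0.65. RAD50 stood at -0.19 in 22Rv1, and after centring or quantile normalization 6 of 6 fell there. Of 8 genes that resolve junctions 4 fell and 2 rose in each line, where 34.1% of all genes rose in LNCaP and 36.5% in 22Rv1. RMI2, a partner of BLM, fell by 3.68 ± 0.11 in LNCaP and by 1.40 ± 0.11 in 22Rv1, while the nuclease MUS81 rose by 0.76 ± 0.16 and by 0.74 ± 0.16, and its scaffold SLX4 rose at least 3.35-fold in LNCaP and at least 1.24-fold in 22Rv1.

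Of 12 tested Fanconi genes 11 fell and 1 rose in LNCaP, and 7 fell in 22Rv1, with medians of -1.42 and -0.85. Among all genes 28.0% fell in LNCaP and 24.3% in 22Rv1. After centring each array on its median the 22Rv1 count of Fanconi genes that fell was 10. BRIP1, the helicase that binds BRCA1, read 4.05, 2.34 and 3.00 in LNCaP overexpression, against 8.82, 8.90 and 8.58 in LNCaP control, and 6.06, 6.52 and 6.61 in 22Rv1 overexpression, against 9.65, 9.63 and 9.65 in 22Rv1 control. Its levels were separated in both lines, as for FANCI. The fitted fall was -5.64 ± 0.28 in LNCaP, of uncertain size with 2 of 3 overexpression arrays under the floor, and -3.24 ± 0.28 in 22Rv1 (limma adjusted p = 5.09e-11 and 5.73e-08). UBE2T, the enzyme that delivers ubiquitin to FANCI and FANCD2, fell by 2.91 in LNCaP and by 1.66 in 22Rv1, and FANCE was the gene that rose in LNCaP, by 1.08 ± 0.31 (adjusted p = 0.00707).

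Of 5 BRCA1 complex partners 2 fell in LNCaP, and 3 fell and 2 rose in 22Rv1, where no rise remained after centring. Among all genes 28.0% fell and 34.1% rose in LNCaP, and 24.3% fell and 36.5% rose in 22Rv1. BRCC3, a deubiquitinase of the BRCA1-A complex, fell by 0.55 ± 0.10 in LNCaP and by 0.76 ± 0.10 in 22Rv1. Of 7 genes that restrain recombination 3 fell and 3 rose in LNCaP, and 4 fell and 2 rose in 22Rv1. PARPBP, which holds recombination in check, was at least 33.2-fold lower in LNCaP and fell by 2.20 ± 0.25 in 22Rv1. FIGNL1, an ATPase, fell by 3.57 ± 0.20 and by 1.56 ± 0.20. TP53BP1, which shields broken ends from resection, rose by 0.39 ± 0.16 in LNCaP and by 0.85 ± 0.16 in 22Rv1, and the LNCaP rise was not called after quantile normalization (0.26, limma adjusted p = 0.136).

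Lists outside recombination were read in the same way, beside the 28.0% of all genes that fell in LNCaP and the 24.3% that fell in 22Rv1. Damage checkpoint genes fell in 7 of 10 cases in LNCaP and 6 of 10 in 22Rv1, with CHEK1, the S phase checkpoint kinase, at -3.88 in LNCaP and -2.57 in 22Rv1. ATM, the kinase that answers double-strand breaks, rose by 0.75 ± 0.24 in LNCaP and by 0.58 ± 0.24 in 22Rv1, and the 22Rv1 rise was not called after centring (0.40, limma adjusted p = 0.132). End joining genes fell in 4 of 9 and 5 of 9, led by POLQ, the polymerase of the alternative route, which fell by 5.27 in LNCaP and by 3.00 in 22Rv1. Mismatch repair genes fell in 3 of 3 and 2 of 3. Of 14 excision repair genes 4 fell and 4 rose in LNCaP, and 2 fell and 4 rose in 22Rv1, or 4 fell and 3 rose there after centring, where 34.1% of all genes rose in LNCaP and 36.5% in 22Rv1. ERCC1, a subunit of the nuclease that cuts beside bulky lesions, rose by 1.30 ± 0.19 in LNCaP and by 1.92 ± 0.19 in 22Rv1 (limma adjusted p = 1.95e-05 and 2.55e-07), and the helicase ERCC2 rose by 1.78 ± 0.32 and by 1.84 ± 0.32. PARP1, which senses strand breaks, fell by 1.30 ± 0.09 in LNCaP and by 0.87 ± 0.09 in 22Rv1. Of the other PARP enzymes tested, PARP3 rose by 0.34 ± 0.13 in LNCaP and by 0.35 ± 0.13 in 22Rv1, and PARP2 stood at 0.15 in LNCaP (limma adjusted p = 0.485) and rose by 0.47 ± 0.17 in 22Rv1. After centring neither was called higher in 22Rv1.

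**Figure D5:**
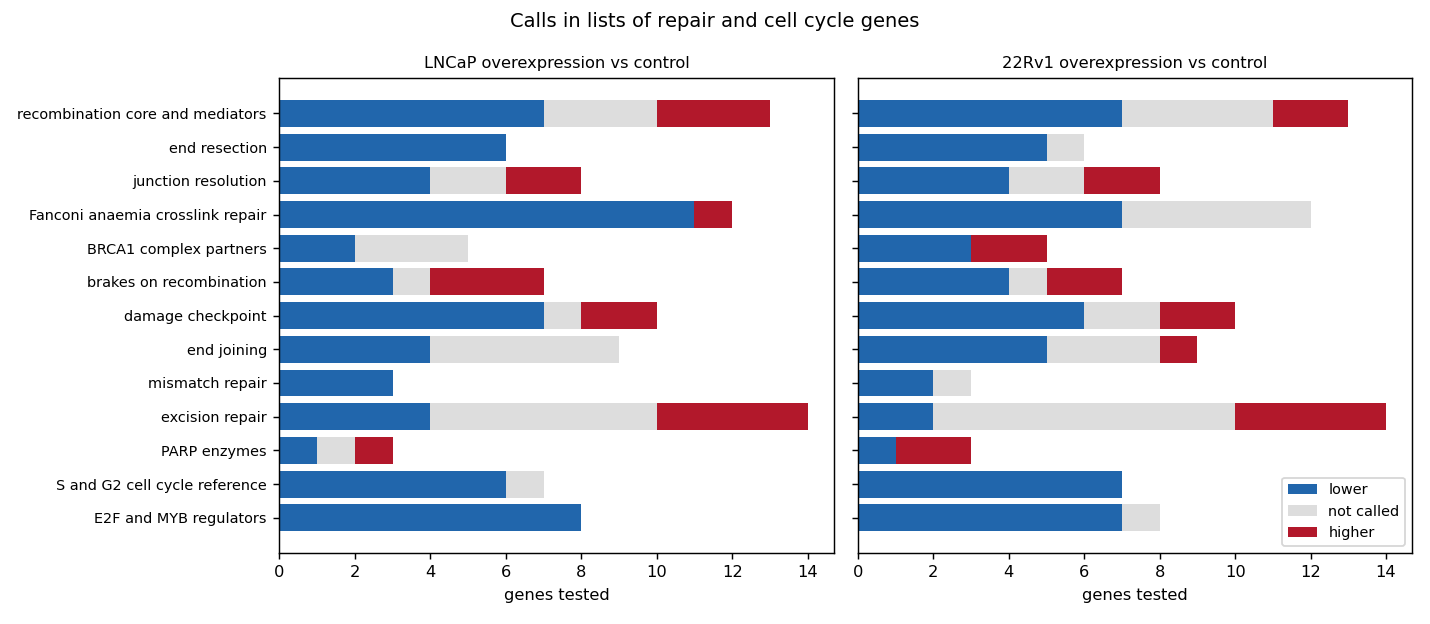
Number of tested genes (horizontal axis) called lower, not called and called higher in each list of repair or cell cycle genes (vertical axis), for LNCaP overexpression against control on the left and 22Rv1 overexpression against control on the right. Of the 12 Fanconi genes 11 are lower in LNCaP and 7 in 22Rv1, and of the 14 excision repair genes 4 are lower and 4 higher in LNCaP, and 2 lower and 4 higher in 22Rv1.

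On the arrays labelled ONECUT2 shRNA, set against scramble, 8 of the 51 recombination genes were higher, 3 were lower and 40 did not pass, where 13.4% of all genes were called higher and 16.1% lower. Against 22Rv1 control 0 of the 51 were called on these arrays by limma (3 had an unadjusted p under 0.05). The resection genes NBN (0.50 ± 0.09), DNA2 (0.63 ± 0.15) and WRN (0.58 ± 0.17) were higher, as EXO1 was, and so were RMI2 (0.71 ± 0.11) and TP53BP1 (1.11 ± 0.16). On the scramble arrays NBN (-0.56 ± 0.09), RMI2 (-0.49 ± 0.11) and TP53BP1 (-0.60 ± 0.16) were lower than in 22Rv1 control. In that comparison 6 of the 51 genes were lower and 5 higher, where 9.40% of all genes were called lower and 12.5% higher. The 5 higher genes included FAAP100 (0.55 ± 0.13) and BABAM1 (0.42 ± 0.14). Against scramble, the arrays labelled ONECUT2 shRNA were lower for SWSAP1 (-0.32 ± 0.11), FAAP100 (-0.49 ± 0.13) and BABAM1 (-0.45 ± 0.14). Of 8 E2F and MYB regulators 5 were higher on the arrays labelled ONECUT2 shRNA than on scramble. Against 22Rv1 control 3 of the 8 were higher on these arrays, where 2.35% of all genes were called higher. In overexpression 8 of 8 fell in LNCaP and 7 of 8 in 22Rv1, where 28.0% and 24.3% of all genes fell. E2F8 fell by 5.73 in LNCaP and by 2.77 in 22Rv1.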

How the data were processed

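The deposited values were log2 expression values of 54675 probe sets, made by the authors with GCRMA per the submitters' processing notes. GCRMA subtracts a background modelled on each probe's bases, equalizes the arrays' distributions by quantiles and sums probes into sets. The sources used here name neither its version nor which arrays it took together. Probe sets were named through the platform's gene table: 41097 had 1 symbol (41043 updated through the gene identifier), 1801 had several, 11715 had none and 62 were platform controls. Some genes of the lists are not reported here.

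Each of 19775 genes was read from its brightest single-symbol probe set, by the mean over all arrays. The 12159 genes with a log2 value over 4 in 3 or more arrays were tested, all 8 members among them (XRCC3, HELB, COL1A2, DCN, PTPRC, CD3E, CD14, PECAM1, VWF and CDH5 failed). One model was fitted to the 18 arrays with limma 3.58.1 (R version 4.3.3), using group means, 12 residual degrees of freedom and trended, robust moderation, after a test on simulated data. P-values were adjusted by Benjamini-Hochberg within each of 7 comparisons. Probe sets were fitted likewise. Where all arrays of the lower group were under 4, the fold is given against 4 as "at least"; where both groups were, none is given. Low values are shrunk and background-limited, which can understate folds. Precision is limited by having 3 arrays per group.

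The genes and the 16 lists were chosen with earlier results of these data known. List genes were named whatever their result if well known in the pathway (PALB2, RAD51C, DMC1, PSMC3IP, BRIP1, UBE2T, BLM, CHEK1, ATM, TP53BP1 and POLQ), if among the 3 smallest adjusted p-values of their list in a comparison, or if called against most of their list; MRE11, RAD50 and ERCC2 were picked after their values were seen. Genes like the members are the 5 with the highest Pearson correlation with their mean. No arrays were duplicates (highest correlation of any pair 0.998). Alternatives were median centring, quantile normalization, a floor of 5, array weights, the compared groups alone, the mean of a gene's probe sets, each array left out and the replicate number as a block.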

Additional observations from a re-analysis of the deposited data

Results flagged for a closer look

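The changes with overexpression differed between LNCaP and 22Rv1, by the test of the difference itself in limma, for 6 of the 8 genes. Over all 12159 tested genes, 5434 had a difference called in either direction, and 26.6% had it called in the direction of these 6. The differences, LNCaP minus 22Rv1 on the log2 scale, were -1.62 for BRCA1, -3.15 for RAD51AP1, -1.01 for RAD54L, -4.70 for MND1, -2.13 for EXO1 and -4.21 for FANCI. RAD54L rested on values under the floor in both overexpression groups, 2 of 3 MND1 arrays in LNCaP overexpression were under it, and 1 of 3 FANCI probe sets had no called difference. The dimmer BRCA1 probe set was under the floor in both overexpression groups and could not show one. Groups of 3 arrays were too small for a test of single outlying arrays.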

How the results depend on the processing

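Of 881 repeats of the members' 56 results under other settings, 811 kept their direction and side of the threshold, 16 lost the call, 23 gained it and 31 changed sign. All 8 members stayed lower in both overexpression comparisons in every setting that tested them (RAD54L was not tested at a floor of 5), with 7 to 8 called in 22Rv1 and in LNCaP.

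The shRNA and scramble comparisons moved most. Against scramble, the arrays labelled ONECUT2 shRNA had 2 members called after median centring, 4 with array weights and 3 with the compared groups alone, and 6848 genes with array weights, against 3592. For scramble against 22Rv1 control 5 members were called with array weights and 5 with the compared groups alone (0 to 1 with an array left out), and 6419 and 4630 genes, against 2659. For ONECUT2 shRNA against 22Rv1 control 2 members were called with array weights and 2 with the compared groups alone, and 3417 and 1978 genes, against 542 (210 to 503 with an array left out). The array weights came with a convergence warning and gave LNCaP overexpression replicates 1 and 3 weights of 0.058 and 0.030; they ended the LNCaP call of XRCC2 (-0.55, limma adjusted p = 0.330).

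Signs turned only where values were small, apart from BARD1 and FANCI. After centring and with weights the MND1 change turned to 0.014 and 0.0092 against scramble, to -0.038 and -0.024 for scramble against control, and to -0.024 and -0.015 for ONECUT2 shRNA against 22Rv1 control. The XRCC2 difference turned to 0.17 after centring, 0.075 after quantile normalization and 0.075 with weights. With the mean of all probe sets the BARD1 difference was -0.62 (-0.35 with weights), FANCI was 0.035 against scramble and -0.46 between controls (limma adjusted p = 0.0217), and BRCA1 was -0.051 for ONECUT2 shRNA against 22Rv1 control. With an array left out, the XRCC2 difference ran from -0.26 to 0.094 and that of BARD1 from -0.59 to 0.44. MND1 ran from -0.14 to 0.12 against scramble, from -0.11 to 0.15 for scramble against control and from -0.039 to 0.088 for ONECUT2 shRNA against 22Rv1 control, where BRCA1 ran from -0.035 to 0.19. The causes were not tested. RAD51AP1 between controls lost its call after centring (-0.47, limma adjusted p = 0.0591) and BRCA1 did with some arrays left out.

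Centring moved the median of all genes in 22Rv1 overexpression to -0.07, and 46.0% of its calls were then higher (50.3% after quantile normalization), against 60.1%. The share of higher calls became 58.8% for the difference between lines, against 40.5%, and 43.7% for scramble against 22Rv1 control, against 57.0%. In 22Rv1 overexpression 35 recombination genes were then lower and 5 higher. List counts without LNCaP overexpression replicate 1, an alternative chosen after seeing the data, moved for PARP enzymes and luminal markers alone (2 higher in each, against 1).

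Same-numbered arrays correlated at -0.15, -0.22 and -0.04 in 22Rv1 overexpression and at 0.09, 0.08 and 0.02 in LNCaP overexpression. The values were -0.05, 0.43 and 0.34 for scramble against 22Rv1 control, and 0.11, 0.06 and 0.32 for ONECUT2 shRNA against scramble. Between the controls of the lines they were 0.06, 0.14 and 0.08, and all 3 LNCaP arrays were most like the array of their own number. In no comparison were all correlations above 0.1, but 3 arrays per group cannot settle whether the numbers mark a shared batch. With the replicate number as a block 7370, 7516, 3521, 5397, 2591, 492 and 7704 genes were called for 22Rv1 overexpression, LNCaP overexpression, ONECUT2 shRNA against scramble, the difference between lines, scramble against control, ONECUT2 shRNA against control and the controls of the lines, in that order, and the members called stayed at 8, 8, 1, 6, 1, 0 and 5. Depth does not apply to arrays, and RAD54L and XRCC2 lay near or under the floor.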
